A study of Mus musculus with 37 samples.

Results

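Transcript levels of 8 genes of the neuropeptide pathway were examined in cortical astrocytes of mice that did or did not develop post-traumatic epilepsy (PTE). The genes were Pam (ENSMUSG00000026335), Cpe (ENSMUSG00000037852), Pcsk1n, Scg3, Penk, Npy, Sst and Cck, 8 of the 21975 genes in each of 2 deposited tables. They were chosen by name, and Pam and Penk had themselves been selected on their differences between mice with and without epilepsy in these libraries, so those differences are given as a description with no test. Astrocytes were isolated from each hemisphere of the cortex of male mice with beads against the surface antigen ACSA-2, at 4 months after surgery. Injured mice had received a controlled cortical impact (CCI) on the right parietal cortex, and EEG with video then sorted them into mice with seizures (PTE+) and without (PTE−). Sham mice had a craniectomy and no impact, and all mice, sham mice included, carried implanted EEG electrodes. The strain is CD1 in the methods of the study and CD31 in the sample labels, with no genetic change in any group. The ipsilateral cortex, on the side of the surgery, gave 5 sham, 10 PTE− and 4 PTE+ libraries, and the contralateral cortex gave 5 sham, 9 PTE− and 4 PTE+ libraries, 1 per mouse and hemisphere. Mouse names begin with 8 or 9, and no source used here says what this prefix stands for.

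Neuropeptides are made as large precursors that travel to dense-core secretory granules, where enzymes cut, trim and modify them. Pam, peptidylglycine α-amidating monooxygenase, is a copper and ascorbate dependent enzyme that converts the C-terminal glycine of a trimmed peptide into an amide, which many peptides need for receptor binding. Cpe, carboxypeptidase E, removes basic residues after the cut, Pcsk1n encodes proSAAS, an inhibitor of prohormone convertase 1, and Scg3, secretogranin III, helps to sort cargo into granules. Penk, Npy, Sst and Cck encode the precursors of enkephalins, neuropeptide Y, somatostatin and cholecystokinin, of which neuropeptide Y and cholecystokinin are amidated and enkephalins and somatostatin are not. In the cortex these precursors are best known from neurons, while astrocytes are known to express Cpe, Scg3 and Penk.

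Levels are in TPM (the usual transcript abundance unit of RNA-seq), a share of each library corrected for transcript length, so levels of different genes can be set side by side, but the sequencing depth behind a value is unknown. The summed level of 12 astrocyte markers was 14898 to 22027 TPM over the 37 libraries, against 68.4 to 809 TPM for 14 neuron markers, 120 to 669 TPM for 10 microglia markers and 536 to 4471 TPM for 10 oligodendrocyte markers. Gfap, a defining astrocyte gene, was between 117 and 1065 TPM, and the neuronal gene Rbfox3 between 0 and 47.1 TPM. The ipsilateral library of PTE− mouse 9_14 stood apart, with 10727 genes above 0 TPM against 15599 to 18534 in the other 36 libraries. Its Penk, Sst and Cck were all listed at 0 TPM, while its Pam (9.65 TPM) and Scg3 (574 TPM) lay within the range of its group.

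Cpe was the most abundant of the 8 transcripts, between 3663 and 8292 TPM (median 5316), followed by Scg3 at 425 to 682 TPM (median 563) and Pcsk1n at 41.0 to 327 TPM (median 140), and these 3 ranges did not overlap. Npy (median 68.2 TPM) and Cck (median 61.6 TPM) came next and overlapped in range. Sst (median 15.8 TPM), Pam (median 11.2 TPM) and Penk (median 7.59 TPM) were lowest and also overlapped.

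Groups were compared on log2(TPM + 1) with limma. A gene was called where it passed both p = 0.05 before adjustment and a 1.2-fold difference. The filter of 5 TPM was set on the higher mean of the groups or sides compared, and 8 of 8 genes passed it in every comparison. Penk had a mean of 3.81 TPM in contralateral PTE− libraries, so it passed through the other group or side wherever these were compared. For PTE+ over PTE− ipsilaterally, 1 of 8 genes (Pam) was called, where 0.573% of all genes tested were called. Between PTE− and sham mice it was 1 of 8 (Sst, lower) against 1.54% of all genes, and between PTE+ and sham mice 2 of 8 (Pam higher, Sst lower) against 1.56%. In the contralateral cortex, 1 of 8 genes (Penk) was called between PTE+ and PTE− mice against 2.79% of all genes, and 1 of 8 (Penk, lower) between PTE− and sham mice against 3.76%. Between PTE+ and sham mice 0 of 8 genes were called there against 1.97% of all genes, and 0 of the 8 had an unadjusted p under 0.05. The calls of Pam and Penk between groups follow from how the genes were chosen, and so in part does that of Penk within PTE− mice, which uses the same contralateral libraries, so nothing is read from them. Within mice, ipsilateral against contralateral, 1 of 8 genes (Sst) was called in 5 sham mice against 6.91% of all genes, 2 of 8 (Penk and Cck) in 9 PTE− mice against 5.95%, and 2 of 8 (Npy higher, Pcsk1n lower) in 3 PTE+ mice against 3.86%. After Benjamini-Hochberg adjustment over all genes in limma, no member passed 0.05 except Npy within PTE+ mice (adjusted p = 0.00286, but 0.734 in limma without the filter on low genes). Without the library of mouse 9_14, the ipsilateral PTE− comparisons gave the same counts of members called, 1 of 8 in each.

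**Figure D1:**
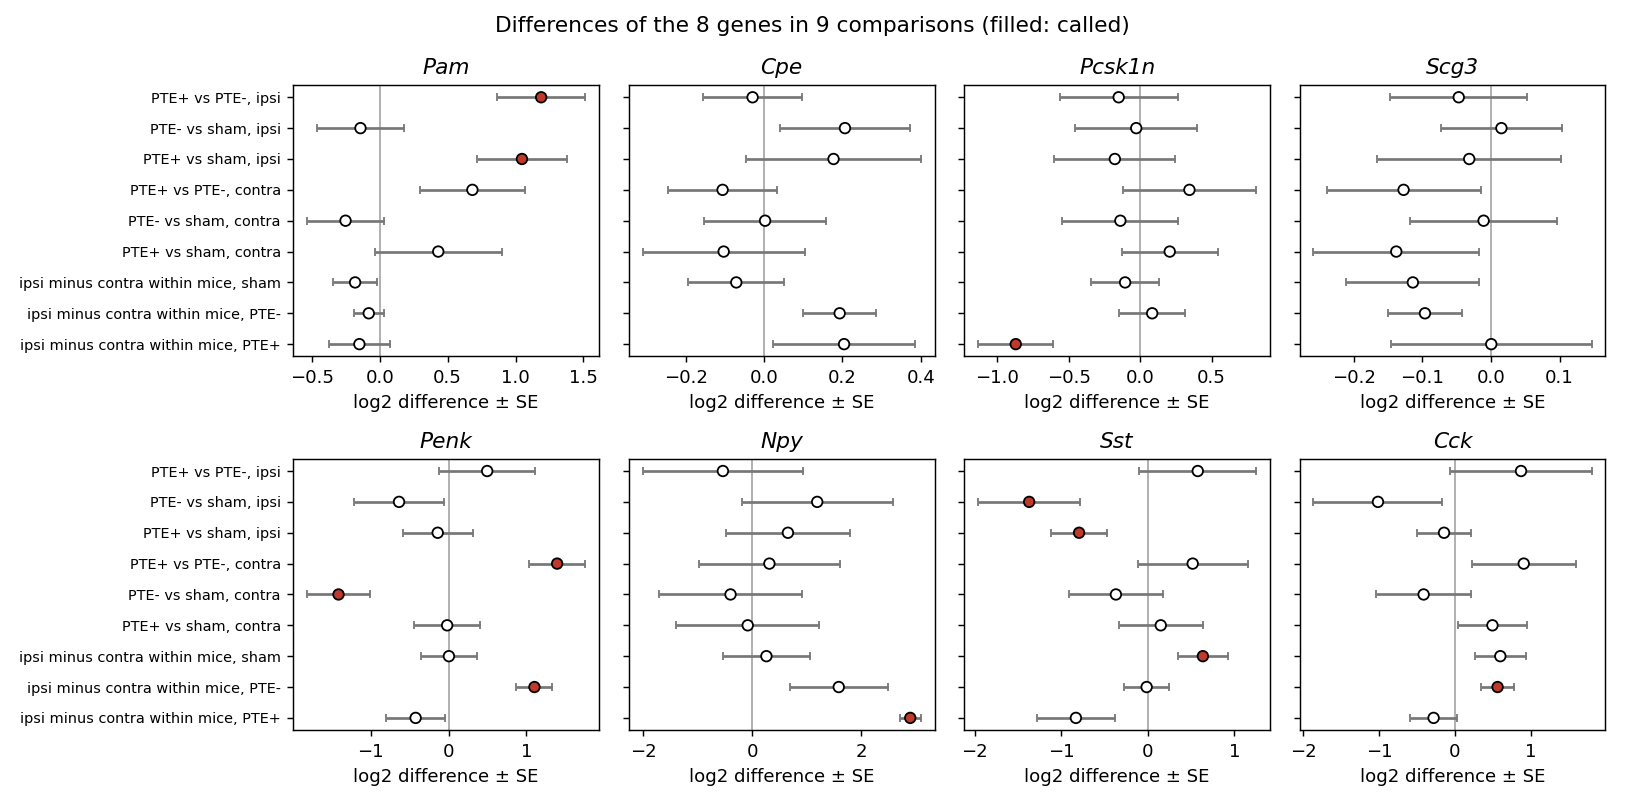
The log2 difference of each gene with its standard error (limma, horizontal axis, with its own scale in each panel) in 9 comparisons, red where the gene was called. Pam stood at 1.19 for ipsilateral PTE+ over PTE− libraries and Penk at 1.40 for the contralateral ones, while Scg3 stayed within 0.14 of 0 throughout.

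Pam spans chr1:97795114-98095646 on the minus strand of GRCm38. The 250 bases before its start are shown because the comparison of outcomes turned on this gene, and capitals mark the letters CCGCCC or GGGCGG, the core of the GC box that Sp1 binds.

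Pam, GRCm38.p6 chr1:98095647-98095896, minus strand: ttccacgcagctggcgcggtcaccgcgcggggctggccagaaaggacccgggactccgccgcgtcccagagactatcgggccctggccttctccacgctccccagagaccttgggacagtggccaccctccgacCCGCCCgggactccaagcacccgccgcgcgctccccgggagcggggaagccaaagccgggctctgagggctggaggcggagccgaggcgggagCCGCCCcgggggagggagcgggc

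This stretch, copied from RefSeq promoters, holds 75.6% G and C, against a median of 52.4% over 32841 promoter stretches of the same length. It holds 2 GC box cores, at 116 and 23 bases before the start, and 32.7% of all stretches hold at least 1 on either strand. It holds neither TGACGTCA, the cyclic AMP response element (CRE), nor its short form CGTCA or TGACG, nor the TATA box letters TATAAA on either strand. RefSeq lists another start of Pam inside the gene, and 6 of the 8 genes were matched in the promoter table, with no entry for Cpe and Penk.

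In ipsilateral PTE+ libraries Pam measured 13.6 TPM in mouse 8_10, 26.4 in 9_17, 20.8 in 9_18 and 30.4 in 9_19. In the 10 ipsilateral PTE− libraries it ranged from 5.17 to 15.2 TPM (median 9.04), and in the 5 sham libraries from 5.89 to 18.2 TPM (median 9.71). The PTE+ mice with prefix 9 lay above every PTE− and sham library, and mouse 8_10 lay inside both groups. In the contralateral cortex the PTE+ libraries held 14.8 TPM in mouse 8_10, 5.88 in 8_17, 44.3 in 9_17 and 15.6 in 9_18. Contralateral PTE− libraries ranged from 5.59 to 16.5 TPM (median 9.28) and sham libraries from 7.17 to 22.3 TPM (median 11.6). Here only mouse 9_17 exceeded every other library of Pam, and mouse 8_17 lay near the bottom of the range.

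Ordered by median, the 6 groups ran from ipsilateral PTE+ (23.6 TPM) through contralateral PTE+ (15.2), contralateral sham (11.6), ipsilateral sham (9.71) and contralateral PTE− (9.28) to ipsilateral PTE− (9.04), and each neighbouring pair of groups overlapped. The log2 difference of Pam between PTE+ and PTE− mice was 1.19 (SE 0.32) ipsilaterally and 0.68 (SE 0.39) contralaterally. Within prefix 9 it was 1.56 and 1.53 in the 2 hemispheres, and within prefix 8 it was 0.31 and −0.21, from 1 and 2 PTE+ mice. With the prefix as a covariate it was 1.202 and 0.69. The contralateral difference was called without PTE+ mouse 8_17 (1.11) and fell to 0.21 without PTE+ mouse 9_17. Against sham mice, PTE+ differed by 1.05 (SE 0.33) ipsilaterally and 0.43 (SE 0.47) contralaterally, values that share the PTE+ libraries on which Pam was chosen. PTE− and sham mice differed by −0.14 (SE 0.32) ipsilaterally and by −0.25 (SE 0.28) contralaterally, and this comparison likewise shares its PTE− libraries with the choice of Pam, so no test is given.

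In the 17 mice with both libraries the ipsilateral and contralateral levels of Pam ran together, as in PTE+ mouse 9_17 (26.4 and 44.3 TPM), sham mouse 9_11 (18.2 and 22.3 TPM), PTE− mouse 9_12 (15.1 and 16.3 TPM) and PTE− mouse 9_20 (6.08 and 5.59 TPM). Pearson's r of log2(TPM + 1) was 0.91 and Spearman's rho 0.93 over 17 mice, given with no test because the mice include the difference between outcomes on which Pam was chosen. After removal of group means r was 0.87, within the 9 PTE− mice alone it was 0.90, within prefix 8 it was 0.91 (7 mice) and within prefix 9 it was 0.93 (10 mice). Without the 2 mice farthest from the ipsilateral median r was 0.91. This relation was computed after the values had been seen. Of the other 7 genes, Cck had r = 0.65 (permutation p = 0.00464, adjusted p = 0.0186 over the 8 genes, Spearman's rho = 0.48 with permutation p = 0.0525), which fell to 0.44 without the 2 farthest mice and to 0.12 within prefix 8. Scg3 had r = 0.52 (permutation p = 0.0333, adjusted p = 0.0888, Spearman's rho = 0.47 with permutation p = 0.0625), and 0.48 without the 2 farthest mice. The other 5 genes had r from 0.23 to 0.42 and rho from 0.03 to 0.25, with adjusted permutation p-values of 0.181 to 0.371 and 0.52 to 0.921.

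**Figure D2:**
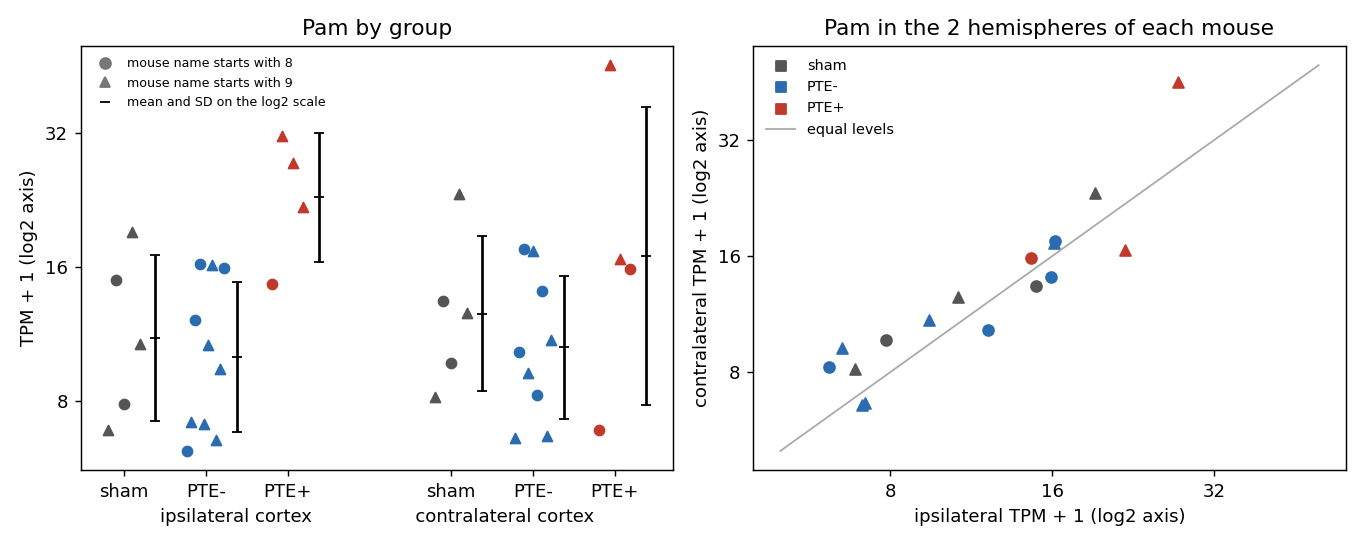
Pam in every library (left, TPM + 1 on a log2 axis, with the mean and SD of each group on the log2 scale) and in both hemispheres of 17 mice (right, both axes TPM + 1 on a log2 scale). The 3 ipsilateral PTE+ mice with prefix 9 sit between 20.8 and 30.4 TPM, above all PTE− and sham libraries of that hemisphere, and the mice lie along the line of equal levels.

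Within mice, the ipsilateral minus contralateral log2 difference of Pam was −0.18 ± 0.19 (SD, n = 5) in sham, −0.08 ± 0.26 (SD, n = 9) in PTE− and −0.15 ± 0.56 (SD, n = 3) in PTE+ mice. The means were smaller than the spread between mice. In sham mice, which had no part in the difference between outcomes, the exact sign-flip permutation p was 0.125 (n = 5), where 5 mice cannot give less than 0.0625. The hemisphere difference of PTE+ mice minus that of PTE− mice was −0.07.

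The genes whose levels ran most like Pam, by the lower of Pearson's r in the 19 ipsilateral and the 18 contralateral libraries among 10065 genes, were Prickle1 (0.65), Epas1 (0.65), H2-Q10 (0.48), Zfp967 (0.48) and Gm14325 (0.47). Prickle1 is a planar cell polarity gene and Epas1 encodes the hypoxia-responsive factor HIF-2α. In contralateral PTE+ mouse 9_17, where Pam was highest, Epas1 was also at its highest (100.5 TPM, against 16.4 in the lowest library), and so was Prickle1 (19.8 TPM, against 5.04). These points share libraries, and within groups the correlations of Prickle1 and Epas1 with Pam were 0.53 to 0.64. The summed endothelial markers were also highest of all libraries in that of mouse 9_17 (2274 TPM, against 296 in the lowest). They correlated with Pam at 0.57 contralaterally and −0.03 ipsilaterally, and in contralateral PTE+ against PTE− mice 2 of 9 were called higher with a median of 0.72. Over all genes 2.79% were called there and the median was 0.05. The part of endothelial RNA in the level of Pam was not tested.

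Of 9 genes that supply copper or ascorbate to Pam or bind it, 6 passed the filter. The call of Ccs, the copper chaperone of superoxide dismutase, between contralateral PTE− and sham mice (0.29, limma adjusted p = 0.961) was the only one among them in the 9 comparisons, at 146 ± 25.2 TPM (SD, n = 9) against 119 ± 17.7 TPM (SD, n = 5). Over the 6 genes the median log2 difference between PTE+ and PTE− mice was 0.06 ipsilaterally and 0.01 contralaterally, beside 0.12 and 0.05 over all genes tested.

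Cpe, at chr8:64592542-64693054 on the minus strand, showed no call between groups or within mice. Its ipsilateral levels were 3663 to 8292 TPM in sham (median 4781), 3929 to 6454 TPM in PTE− (median 5951) and 4948 to 6517 TPM in PTE+ mice (median 5524). The sham range held both extremes, mouse 8_15 at the bottom and mouse 9_10 at the top. PTE− exceeded sham mice by 0.21 (exact permutation p = 0.243, n = 10 and 5), and without sham mouse 9_10 the difference was 0.39 and was called, as it was with quantile normalization (0.34) and array weights (0.31). Cpe was also called between ipsilateral PTE+ and sham mice with quantile normalization (0.32) and without sham mouse 9_10 (0.36), and within PTE+ mice without mouse 9_17 (0.43). The genes most like Cpe, named after the values were seen, were Cx3cr1 (0.82), Gpm6b (0.80), Ghitm (0.79), Csf1r (0.79) and P2ry12 (0.77). Of these, Cx3cr1, Csf1r and P2ry12 are microglial receptors. The summed level of the 10 microglia markers, 120 to 669 TPM over all libraries, correlated with Cpe at 0.78 ipsilaterally and 0.79 contralaterally, and its part in the level of Cpe was not tested. In bulk samples, fewer cells of a type and less RNA per cell cannot be told apart.

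Scg3 had the narrowest range of the 8 genes over all libraries, with the highest level 1.61 times the lowest. The gene (ENSMUSG00000032181, chr9:75643189-75684056, minus strand) ranged from 496 to 611 TPM in ipsilateral sham, 469 to 633 in PTE− and 425 to 575 TPM in PTE+ mice, and from 503 to 643, 480 to 682 and 497 to 586 TPM in the same groups contralaterally. The largest group difference was −0.14, between contralateral PTE+ and sham mice (exact permutation p = 0.143, n = 4 and 5). Within mice the contralateral level was higher in 5 of 5 sham and 7 of 9 PTE− mice, by −0.11 and −0.10 on average (exact sign-flip permutation p = 0.0625, n = 5, and 0.0430, n = 9), changes below the fold of 1.2.

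Pcsk1n (ENSMUSG00000039278, chrX:7919822-7924410, plus strand) was variable within groups. It ranged from 41.0 to 194 TPM in ipsilateral sham, 65.0 to 266 in PTE− and 66.9 to 169 TPM in PTE+ libraries, and its group differences ran from −0.18 to 0.35. Within PTE+ mice the ipsilateral level was lower by 0.87 on average (−0.87, SE 0.26, limma adjusted p = 0.999), from 170 to 169 TPM in mouse 8_10, from 200 to 66.9 TPM in 9_17 and from 239 to 116 TPM in 9_18. The first of these mice showed almost no difference, and the exact sign-flip permutation p was 0.25 (n = 3), the smallest possible. The call was lost without mouse 9_17 (−0.52) or 9_18 (−0.79). In the same comparison 3 of 11 tested neuron markers were called, all lower ipsilaterally (Nefl −0.68, Thy1 −0.65, Stmn2 −0.52). Of all genes tested there 3.86% were called, and 303 of these 406 were lower. Across libraries Pcsk1n followed the summed neuron markers (r = 0.84 ipsilaterally and 0.86 contralaterally) and was most like Ttc9b (0.95), and the part of neuronal RNA in its level was not tested.

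Penk (ENSMUSG00000045573) spans chr4:4133531-4138819 on the minus strand. Its contralateral level was 8.81 TPM in PTE+ mouse 8_10, 7.48 in 8_17, 11.99 in 9_17 and 14.3 in 9_18. The 9 contralateral PTE− libraries held 1.13 to 8.45 TPM (median 3.61), and the sham libraries held 2.90 TPM in mouse 8_15, 20.6 in 8_16, 14.8 in 9_10, 11.7 in 9_11 and 10.8 in 9_9. The PTE− group was low, with PTE+ mouse 8_17 and sham mouse 8_15 inside its range, and 3 of 4 PTE+ libraries lay above every PTE− library. All PTE+ levels lay within the sham range. The log2 differences were 1.40 (SE 0.36) between PTE+ and PTE−, −1.41 (SE 0.40) between PTE− and sham, and −0.02 (SE 0.42) between PTE+ and sham mice, given as a description since these libraries chose the gene. Within prefix 8 and prefix 9 the first of these was 0.68 and 2.03, and the second −0.69 and −1.95. Leaving out single PTE+ mice kept the first between 1.25 and 1.54, and leaving out single sham mice kept the second between −1.80 and −1.19.

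In the ipsilateral cortex, which did not choose the gene, the differences of Penk had the same signs but were smaller. It measured 15.7 TPM in PTE+ mouse 8_10, 7.59 in 9_17, 4.65 in 9_18 and 13.8 in 9_19, against 0 to 25.5 TPM in PTE− (median 6.64) and 3.49 to 21.1 TPM in sham mice (median 10.4). The 3 groups overlapped. PTE+ exceeded PTE− mice by 0.50 (SE 0.62, exact permutation p = 0.478, n = 4 and 10), and PTE− differed from sham mice by −0.64 (SE 0.57, exact permutation p = 0.342, n = 10 and 5), both within the spread between mice. With a replicate left out, the difference between PTE+ and PTE− mice ranged from 0.18 to 0.79. That between PTE− and sham mice ranged from −0.98 to −0.31. With standard errors of this size, a pattern like the contralateral one was neither shown nor excluded.

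Within PTE− mice the ipsilateral level of Penk was higher in 8 of 9 mice, by 1.10 ± 0.80 (SD, n = 9), with mouse 9_15 the exception (3.78 against 4.75 TPM). The widest gaps were those of mouse 8_13 (11.6 against 2.38 TPM) and mouse 8_9 (25.5 against 6.13 TPM). Sham mice averaged 0.01 ± 1.19 (SD, n = 5), from 9.88 against 2.90 TPM in mouse 8_15 to 3.49 against 14.8 TPM in mouse 9_10. In PTE+ mice the mean was −0.42 ± 1.11 (SD, n = 3), with 15.7 against 8.81 TPM in mouse 8_10 and 4.65 against 14.3 TPM in mouse 9_18. The hemisphere difference of PTE− mice thus lay above that of PTE+ mice by 1.53 and above that of sham mice by 1.10, values that contain the contralateral libraries which chose Penk and carry no test.

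**Figure D3:**
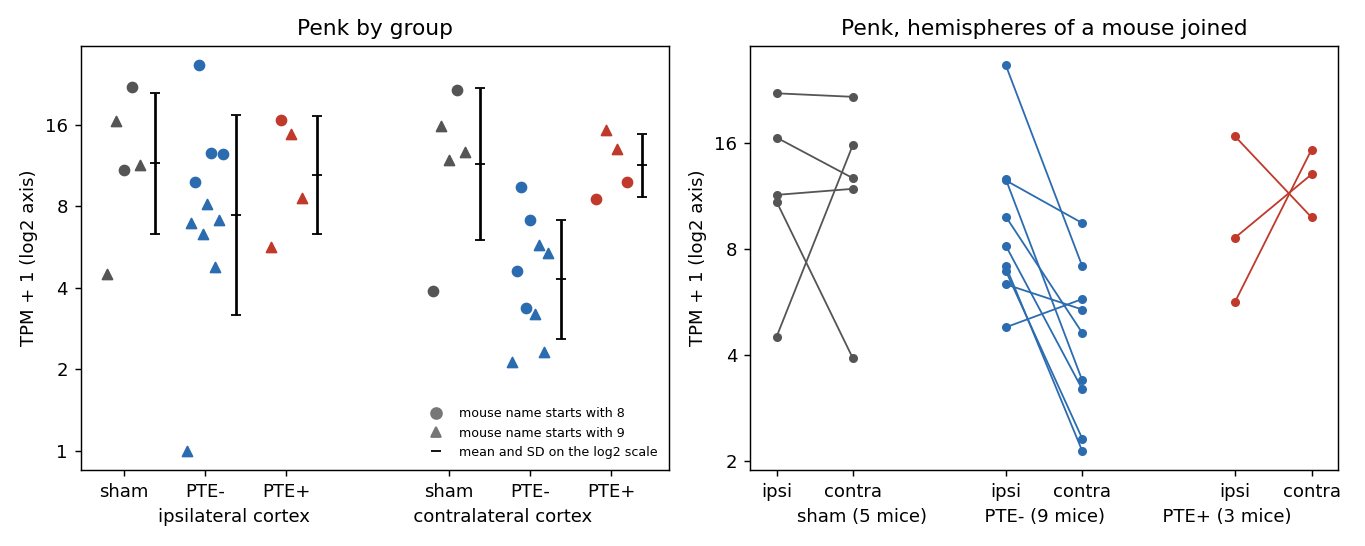
Penk in every library (left, TPM + 1 on a log2 axis, with the mean and SD of each group on the log2 scale) and in both hemispheres of each mouse, joined by a line (right). The contralateral PTE− libraries, at 1.13 to 8.45 TPM, form the low group, and 8 of 9 PTE− lines fall from the ipsilateral to the contralateral side.

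Markers of meningeal and perivascular fibroblasts stood beside these differences. Over the 9 of 12 listed markers tested in contralateral PTE+ against PTE− mice the median log2 difference was −0.20, and over the 11 tested in PTE− against sham mice it was −0.26, beside 0.05 and −0.09 over all genes. Slc47a1, 1 of those listed, was called in the same directions as Penk in the contralateral cortex (1.49 between PTE+ and PTE−, −1.83 between PTE− and sham mice) and within PTE− mice (1.69). The study had named Slc47a1, like Penk, on its differences in these contralateral libraries, so nothing is read from the shared direction. It passed the filter of 5 TPM only through the group or side where it was higher. Contralateral PTE− mice averaged 1.16 ± 1.25 TPM (SD, n = 9) and PTE+ mice 5.29 ± 4.79 TPM (SD, n = 4). Sham mice averaged 13.9 ± 21.2 TPM (SD, n = 5) with a median of 1.55 TPM. Mgp moved in the same way between groups (0.77 and −0.96). Of the listed markers, 2 of 9 tested were called higher in contralateral PTE+ than PTE− mice, where 2.79% of all genes were called. In PTE− against sham mice 3 of 11 were called lower, where 3.76% of all genes were called. Slc47a1 is among both counts. Their summed level was 211 to 461 TPM in PTE+, 172 to 429 in PTE− and 199 to 786 TPM in sham libraries, and correlated with Penk at 0.42 contralaterally and −0.07 ipsilaterally. Endothelial markers were also higher in contralateral PTE+ than PTE− mice for 2 of 9 tested (Pecam1 0.78, Tek 0.80), with a median of 0.72 over the 9. Of the neuron markers, 1 of 10 was called higher in contralateral PTE+ than PTE− mice (Stmn2 0.64), with a median of 0.62 over the 10, and their summed level correlated with Penk at 0.64 ipsilaterally and 0.49 contralaterally. The part of these cells in the level of Penk was not tested.

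The genes most like Penk were Resp18 (0.73), Lypd1 (0.73), Ccn3 (0.70), Hpcal1 (0.69) and Tmem191c (0.67), by the same measure as for Pam. Resp18 encodes a protein of the endocrine secretory granule and Hpcal1 a calcium sensor. The ipsilateral correlations rest in part on the library of mouse 9_14, where Penk was at 0 TPM. Without it that of Resp18 moved from 0.85 to 0.66 and that of Lypd1 from 0.76 to 0.41.

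Npy (ENSMUSG00000029819, chr6:49822710-49829507, plus strand) differed between libraries far more than between groups. It ranged from 6.80 to 4111 TPM, and 16 of the 37 libraries lay above 200 TPM (lowest 248) while 21 lay below it (highest 78.3). Ipsilateral PTE− libraries ranged from 17.4 to 4111 TPM (median 715), sham from 21.3 to 1474 (median 69.0) and PTE+ from 31.1 to 560 TPM (median 364). Contralaterally PTE− libraries ranged from 6.80 to 3084 TPM (median 51.3), sham from 16.3 to 2334 (median 78.3) and PTE+ from 49.9 to 836 TPM (median 55.8). High and low libraries occurred in every group. No group comparison of Npy was called, with differences from −0.54 to 1.19 and exact permutation p-values of 0.444 (n = 10 and 5) to 0.968 (n = 4 and 5). Some mice were high on both sides, such as PTE− mouse 8_13 (4111 and 3084 TPM) and sham mouse 9_9 (1474 and 2334 TPM), and some on 1 side only, such as PTE− mouse 9_13 (2994 ipsilaterally and 30.1 TPM contralaterally).

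Within PTE+ mice the ipsilateral level of Npy was higher in 3 of 3 mice, at 254 against 49.9 TPM in 8_10, 474 against 53.1 TPM in 9_17 and 560 against 58.6 TPM in 9_18. The mean difference was 2.90 (SE 0.19, limma adjusted p = 0.00286), with an exact sign-flip permutation p of 0.25 (n = 3), the smallest that 3 mice allow. The PTE+ libraries without a partner ran the other way, with 31.1 TPM in ipsilateral mouse 9_19 and 836 TPM in contralateral mouse 8_17. In PTE− mice the difference was 1.59 ± 3.44 (SD, n = 9, 4 of 9 mice higher), and the PTE+ value exceeded it by 1.31 (exact permutation p = 0.577, n = 3 and 9), so that a difference between the outcomes was not shown.

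The genes most like Npy, named after the values were seen, were Clca3a1 (0.94), Qpct (0.92), Frzb (0.91), Aqp1 (0.89) and S100a5 (0.87). Frzb, a secreted Wnt inhibitor, and Npy itself are known from olfactory ensheathing glia, the glial cells that wrap olfactory axons. Qpct, glutaminyl cyclase, forms N-terminal pyroglutamate on peptides and was also called within PTE+ mice (1.29, limma adjusted p = 0.999). Frzb was 131 TPM in ipsilateral PTE− mouse 9_13, 130 TPM in 8_13 and 62.2 TPM in sham mouse 9_9, where Npy was 2994, 4111 and 1474 TPM, at most 8.63 TPM in the libraries with Npy below 200 TPM and at least 8.51 TPM in those above it. A list of 8 genes of olfactory ensheathing glia, written after these values were seen, included Frzb, already named for its likeness to Npy. The list is thus not separate from that choice, and it held 4 genes with a mean above 5 TPM. Its summed level was 556 to 1914 TPM in ipsilateral sham, 667 to 3082 in PTE− and 893 to 1723 TPM in PTE+ libraries, and 440 to 2505, 706 to 2843 and 885 to 1651 TPM contralaterally. Fabp7, which astrocytes also express, was the largest part of this sum in every library, at 284 to 2735 TPM. Foxd3 and Mybpc1 were at 0 TPM in the lowest libraries and at 15.6 and 18.5 TPM in the highest. Not all genes of the list ran with Npy. Ngfr was at most 0.92 TPM in any library, and Prss56 was highest, at 466.01 TPM, in contralateral sham mouse 8_15, where Npy was 23.7 TPM. The part of such cells in the level of Npy was not tested.

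**Figure D4:**
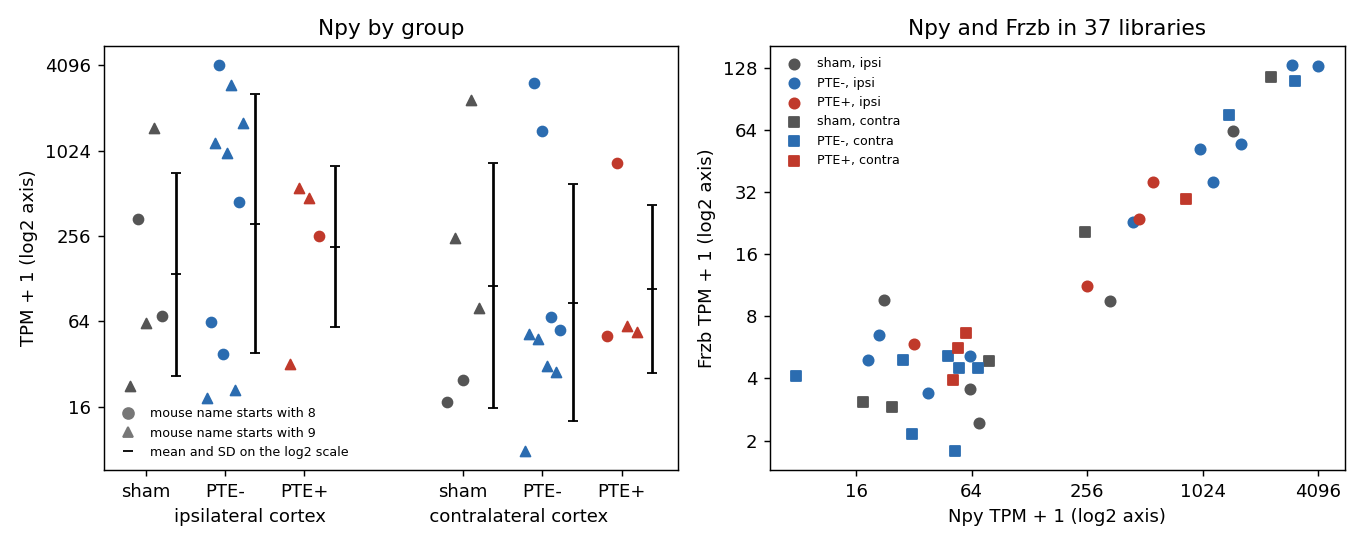
Npy in every library (left, TPM + 1 on a log2 axis, with the mean and SD of each group on the log2 scale) and Npy against Frzb in 37 libraries (right, both axes TPM + 1 on a log2 scale). Every group holds libraries at 78.3 TPM or lower and at 248 TPM or higher, and Frzb is at most 8.63 TPM in the former and from 8.51 to 131 TPM in the latter, so the sets touch.

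Sst (ENSMUSG00000004366, chr16:23889573-23890958, minus strand) was lower in the ipsilateral cortex of injured than of sham mice. The sham libraries held 37.1 TPM in mouse 8_15, 18.99 in 8_16, 24.4 in 9_10, 17.1 in 9_11 and 18.5 in 9_9, and the 10 PTE− libraries ranged from 0 to 25.4 TPM (median 8.37). The PTE+ libraries held 19.8 TPM in mouse 8_10, 5.99 in 9_17, 12.6 in 9_18 and 15.4 in 9_19. Of the injured libraries, 8 of 10 PTE− and 3 of 4 PTE+ lay below every sham library. The log2 difference was −1.37 (SE 0.59, limma adjusted p = 0.999, exact permutation p = 0.0433, n = 10 and 5) between PTE− and sham, and −0.79 (SE 0.32, limma adjusted p = 0.99996, exact permutation p = 0.0556, n = 4 and 5) between PTE+ and sham mice. Both comparisons share the sham libraries. Within prefix 9, PTE− (0 to 10.4 TPM) and sham mice (17.1 to 24.4 TPM) did not overlap, while within prefix 8 they did (14.2 to 25.4 and 18.99 to 37.1 TPM).

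The calls of Sst lay close to the threshold, and leaving out 1 mouse could lose a call with little change in the difference. Between PTE− and sham mice the call was lost without sham mouse 8_15 (−1.19) or 9_10 (−1.34) and with a pseudocount of 0.1 (−1.77), and it was kept without the library of mouse 9_14 (−1.02). Between PTE+ and sham mice it was lost without sham mouse 8_15 (−0.62) or 9_10 (−0.76) and without PTE+ mouse 9_17 (−0.48) or 9_18 (−0.80). In the contralateral cortex Sst showed no call, at 6.25 to 22.1 TPM in sham, 1.65 to 44.7 in PTE− and 5.85 to 34.4 TPM in PTE+ libraries. Within sham mice the ipsilateral level was higher by 0.64 in limma (SE 0.29, adjusted p = 0.673), in 3 of 5 mice, with an exact sign-flip permutation p of 0.3125 (n = 5). Without the mouse as a block this difference was not called.

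Cck (ENSMUSG00000032532, chr9:121489824-121495694, minus strand) ranged from 26.9 to 118 TPM in ipsilateral sham (median 71.7), 0 to 133 in PTE− (median 48.4) and 49.5 to 86.3 TPM in PTE+ libraries (median 58.3), and from 26.3 to 116, 5.27 to 89.7 and 30.4 to 136 TPM contralaterally. The groups overlapped and no group comparison was called, with differences from −1.02 to 0.91 and exact permutation p-values of 0.31 (n = 4 and 9) to 0.73 (n = 4 and 5). The ipsilateral differences rested in part on the library of mouse 9_14, where Cck was at 0 TPM. Without it that between PTE− and sham mice moved from −1.02 to −0.45, and that between PTE+ and PTE− mice from 0.87 to 0.31. Within PTE− mice the ipsilateral level was higher in 6 of 9 mice by 0.56 (SE 0.22, limma adjusted p = 0.468, exact sign-flip permutation p = 0.0781, n = 9), and this call was lost without the mouse as a block.

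**Figure D5:**
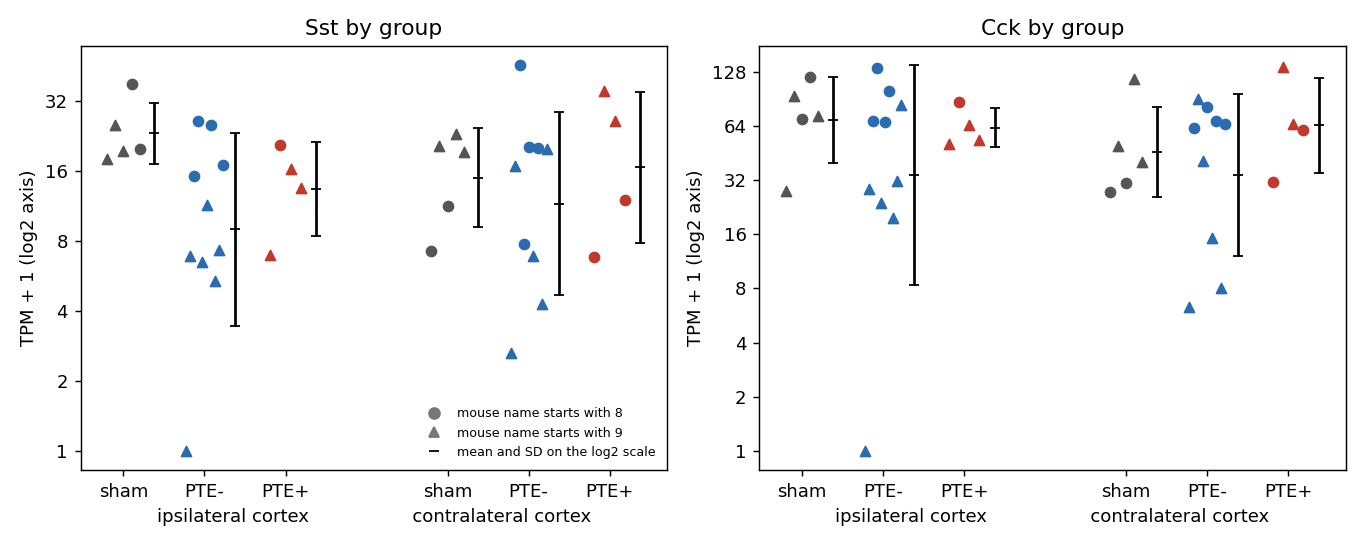
Sst (left) and Cck (right) in every library, as TPM + 1 on a log2 axis with the mean and SD of each group on the log2 scale. In the ipsilateral cortex all sham libraries of Sst sit at 17.1 TPM or higher while 8 of 10 PTE− libraries lie below them, and the groups of Cck overlap.

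Both precursors followed neuronal genes. Hpca, which encodes the neuronal calcium sensor hippocalcin, was among the 5 genes most like each (0.86 for Sst and 0.96 for Cck), as named after the values were seen. The ipsilateral correlations include the library of mouse 9_14, where Sst and Cck were at 0 TPM. Without it the ipsilateral r of Hpca moved from 0.91 to 0.80 for Sst and from 0.96 to 0.93 for Cck. Correlations with the summed markers were not computed without it. The summed neuron markers correlated with Cck at 0.79 and 0.95 and with Sst at 0.74 and 0.81 in the ipsilateral and contralateral tables. Their summed level was 191 to 569 TPM in ipsilateral sham, 109 to 809 in PTE− and 311 to 468 TPM in PTE+ libraries. Of the 14 listed, 10 were tested and 0 called between PTE− and sham mice (median −0.49, beside −0.04 over all genes) and 0 between PTE+ and sham mice (median 0.07, beside 0.09). Summed interneuron markers were 15.3 to 27.5 TPM in sham and 15.2 to 32.9 TPM in PTE− libraries, with Gad1, Pvalb and Dlx2 the only ones tested and none called. The median of these 3 between ipsilateral PTE− and sham mice was 0.71. Only 2 interneuron markers were tested between ipsilateral PTE+ and sham mice (median 0.53). A marker thus passed the filter only through the PTE− libraries, which raises the median of the 3, so nothing is read from its sign. The summed interneuron markers correlated with Sst at −0.09 ipsilaterally and 0.55 contralaterally, and with Cck at −0.11 and 0.40. Of the oligodendrocyte markers, 4 of 9 were called lower in ipsilateral PTE− than sham mice (Mog, Mag, Opalin and Ermn, median −1.08 over the 9), where 1.54% of all genes were called. Their summed level correlated with Sst at 0.57 and with Cck at 0.66 ipsilaterally. The part of neuronal or oligodendrocyte RNA in the levels of Sst and Cck was not tested.

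The 250 bases before the starts of Sst and Cck are shown because Hpca was among the genes most like both. Positions are counted from the RefSeq start. Capitals mark the half-site CGTCA or TGACG of the CRE, the element bound by CREB.

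Sst, GRCm38.p6 chr16:23890845-23891094, minus strand: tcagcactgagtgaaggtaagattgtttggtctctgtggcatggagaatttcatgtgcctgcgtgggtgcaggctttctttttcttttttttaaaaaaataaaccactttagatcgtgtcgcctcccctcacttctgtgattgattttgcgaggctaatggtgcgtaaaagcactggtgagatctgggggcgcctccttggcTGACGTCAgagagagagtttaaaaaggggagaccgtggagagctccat

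Cck, GRCm38.p6 chr9:121495695-121495944, minus strand: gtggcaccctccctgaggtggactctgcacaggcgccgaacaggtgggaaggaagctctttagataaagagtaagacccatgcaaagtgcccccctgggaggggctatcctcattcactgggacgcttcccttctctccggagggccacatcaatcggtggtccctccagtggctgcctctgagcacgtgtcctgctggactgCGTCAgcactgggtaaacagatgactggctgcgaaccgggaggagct

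In Sst the half-sites of both strands overlap into 1 full TGACGTCA at 48 bases before the start, letters that 1.55% of the 32841 stretches hold. In Cck a single half-site lies at 47 bases before the start, and 17.8% of all stretches hold at least 1. Scg3 held 1 half-site at 30 bases before the start, while the stretches of Npy, Pcsk1n and Pam held none, which says only that these letters are absent there.

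Other genes of the pathway, from lists written with earlier results known, were mostly low. Of 14 cleavage and trimming enzymes 9 or 10 passed the filter, but the main neuroendocrine convertases did not, with Pcsk1 at no more than 0.50 TPM and Pcsk2 at no more than 4.96 TPM in any library. None of the 13 receptors for the 4 peptides passed it in a group comparison, and only Cckbr, a cholecystokinin receptor, did within PTE+ mice. Of 23 other precursors 3 were tested (Pomc, Nmb and Adm). Between PTE+ and PTE− mice, 0 genes of the lists of enzymes, granule proteins, other precursors and peptide degrading enzymes were called in either hemisphere.

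Among these pathway lists, granule proteins had most calls within PTE− mice. Of 9 tested, 3 were called, all higher ipsilaterally, where 5.95% of all genes were called. Scg5, the chaperone 7B2 of prohormone convertase 2, rose by 0.44 (limma adjusted p = 0.128), Hid1, a factor of granule formation, by 0.39 (adjusted p = 0.265) and Scg2, secretogranin II, by 0.33 (adjusted p = 0.503). The median of the 9 was 0.27, beside −0.01 over all genes. The 10 neuron markers tested in this comparison also had a median of 0.27, with 1 called higher (Gad1 0.31) and 0 lower. The part of neuronal RNA in the levels of these granule proteins was not tested. Scg5 was also called within PTE+ mice (0.40, limma adjusted p = 0.999), and its mean was 123 ± 36.9 TPM (SD, n = 10) in ipsilateral and 96.7 ± 15.5 TPM (SD, n = 9) in contralateral PTE− libraries. The ipsilateral mean includes the library of mouse 9_14, which had no partner and no part in the comparison within mice. Ece2, an endothelin-converting enzyme that also cleaves neuropeptides, was called higher ipsilaterally within PTE− mice (0.36, limma adjusted p = 0.339) and higher in ipsilateral PTE+ than sham mice (0.49, limma adjusted p = 0.99996), at 16.3 ± 2.92 TPM (SD, n = 4) against 11.4 ± 2.50 TPM (SD, n = 5). Cpm, a membrane carboxypeptidase, was lower ipsilaterally within PTE− mice (−0.48, limma adjusted p = 0.449). Within sham mice Nmb, the neuromedin B precursor, was lower ipsilaterally (−0.54), as was the aminopeptidase Npepps (−0.35, both limma adjusted p = 0.673), and Ccdc186, a granule maturation factor, was lower in contralateral PTE− than sham mice (−0.41, limma adjusted p = 0.961). Most genes called in these 2 comparisons were lower, 691 of 732 within sham mice and 346 of 397 between contralateral PTE− and sham mice. The median over all genes was −0.09 in each.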

How the data were processed

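The authors isolated astrocytes with ACSA-2 beads, made SMART-Seq v4 libraries from single mice, trimmed reads with Trim Galore 0.6.4 and quantified them on mm10 with RSEM 1.2.28 and Bowtie2 2.4.1. They deposited TPM, which hold no sequencing depth, in 1 table per hemisphere. Their own tests with DESeq2 1.36.0 were not used here, and 0 columns of per-sample values were left unused. Of the 37 libraries from 20 mice, 17 mice had both hemispheres.

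Each comparison kept all genes whose higher mean, of its groups or sides, was at least 5 TPM. These genes were fitted on log2(TPM + 1) with limma 3.58.1 in R 4.3.3, with Benjamini-Hochberg adjustment, on the libraries of the groups compared. Fold changes on this scale understate the change of low genes. The hemisphere comparisons held the mouse as a block. Deviations from group means correlated within a mouse (median 0.412, from 0.0418 to 0.686, above 0.1 in 16 of 17 mice) against −0.0271 between mice, and the pairing comes from the mouse names. TPM are scaled within each library, and hemisphere differences compare levels across the 2 tables. Exact two-sided permutation tests and correlations with 100000 permutations used Python 3.11.15 and scipy 1.17.1. The fit was also run on simulated data drawn independently for each gene. Such data lack variation that genes share across a library, so nothing is read from that run. Alternatives were a pseudocount of 0.1, no filter, quantile normalization, median centring, array weights, the mouse prefix, no block, and leaving out each sham and PTE+ mouse and, of PTE− libraries, the ipsilateral one of mouse 9_14.

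The members and lists were chosen with earlier results of these data known, and the olfactory ensheathing glia list after the levels of Npy had been seen. Besides the members, the rule named the 5 genes most like Pam and Penk and list genes that were called. Genes most like the other members, and list genes named without a call, were chosen after their values were seen. Positions are from GENCODE on GRCm38 and promoter sequences from RefSeq on GRCm38.p6.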

Additional observations from a re-analysis of the deposited data

Results flagged for a closer look

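In 6 of 48 groups of members and libraries, 1 library lay far from the others on the log2(TPM + 1) scale, by the ratio of its gap to the nearest library over the range of the group, where chance flags about 1 in 20 groups. The ipsilateral library of PTE− mouse 9_14 accounted for 4 of them. Its Penk was at 0 TPM with the nearest at 3.78 TPM (ratio 0.477), its Sst at 0 TPM with the nearest at 4.41 TPM (ratio 0.516), its Cck at 0 TPM with the nearest at 18.6 TPM (ratio 0.608), and its Cpe at 3929 TPM with the nearest at 5316 TPM (ratio 0.609). The same library had 10727 genes above 0 TPM, the fewest of all.

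The other 2 were in PTE+ mice. Scg3 was 425 TPM in the ipsilateral library of mouse 8_10, against 553 TPM in the nearest (ratio 0.873). Npy was 836 TPM in the contralateral library of mouse 8_17, against 58.6 TPM in the nearest (ratio 0.943), and this mouse had no ipsilateral library.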

How the results depend on the processing

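Of 776 alternatives of single differences, 746 kept their side of the threshold, 15 lost a call and 15 gained one, and differences that were not called could change sign, such as that of Npy between ipsilateral PTE+ and PTE− mice (−0.54, from −0.996 to 0.38 with a replicate left out). No called difference changed sign, and 95 of the 110 alternatives of called differences were still called. The counts of members called moved as follows, and the cause was not tested. Between PTE− and sham mice ipsilaterally, 1 became 0 with a pseudocount of 0.1 and 2 (Cpe and Sst) with quantile normalization or array weights, and 0 to 1 with a replicate left out. Between ipsilateral PTE+ and sham mice, 2 became 3 (Cpe, Pam and Sst) with quantile normalization. With a replicate left out, the count ranged from 1 to 4 between ipsilateral PTE+ and sham mice, from 1 to 2 between contralateral PTE+ and PTE− mice, from 0 to 1 between contralateral PTE+ and sham mice (Cck without sham mouse 9_9) and from 0 to 1 for the difference of hemisphere differences (Scg3 without PTE+ mouse 8_10). Within sham mice, 1 became 0 without the filter and 0 without the replicate block, and 0 to 2 with a mouse left out. Within PTE− mice, 2 became 1 (Penk) without the replicate block. Within PTE+ mice the count ranged from 1 to 5, with 5 without mouse 8_10 and 1 without mouse 9_18. The block changed no other call. The adjusted p of Npy within PTE+ mice in limma moved from 0.00286 to 0.734 without the filter and to 0.115 without mouse 9_18, and was 3.64e-07 to 0.00929 under the other alternatives. The 3 to 5 mice in some groups, and TPM without depth, limit how small a difference could be detected.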

Other observations

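Scg3, named after the values were seen, was most like the glycolytic gene Gpi1 (0.76 by the lower of r in the 2 tables), followed by Prr14 (0.74) and Pgm1 (0.73). Its level ran against the summed neuron markers (r = −0.56 ipsilaterally and −0.62 contralaterally) and with the astrocyte markers (0.54 and 0.43). Pcsk1n ran the other way, against the astrocyte markers (−0.62 and −0.66). These are correlations over 19 and 18 libraries on a scale where all genes share a fixed total, and no test was made.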
